A study of Rattus norvegicus with 6 samples.

Results

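Cytosolic ribosomal protein genes encode the proteins that join the ribosomal RNAs in the large and the small subunit of the ribosome of the cytoplasm. The members were the protein-coding genes of the deposited table whose symbol was Rpl or Rps followed by a stalk protein name (p0, p1 or p2), by the letter a, or by a number that could end in a, x or l, and the Rps6k kinases were left out. By this rule, 86 of the 19616 genes of the table were members, with 72 different symbols, and 56 of them belonged to the large and 30 to the small subunit. Bulk liver RNA of 6 male, specific-pathogen-free SD (Sprague-Dawley) rats was sequenced after removal of ribosomal RNA, with 1 library per rat. In the FL group (rats FL2, FL5 and FL12), CCl4 mixed with olive oil at 1:1 had been injected into the abdominal cavity at 2 mL/kg and 2 times each week over 5 weeks, which injures hepatocytes and leaves a fibrotic liver. In the CL group (rats CL5, CL6 and CL7), the same volume of olive oil had been injected, and the livers were labelled normal. Neither group carried a genetic change by the labels, and the age of the rats was not given in the sources used here. The question was how the mRNAs of the ribosome itself differed between fibrotic and control liver.

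Ribosomal proteins are made in matched amounts, and their mRNAs are among the most abundant and most stable of growing cells. Most of these mRNAs begin with a C followed by an unbroken run of pyrimidines, the 5′ terminal oligopyrimidine (TOP) motif, through which the kinase mTOR and the RNA-binding protein Larp1 set how many of them are translated. In liver, ribosome content is known to follow growth, feeding and regeneration, and ribosomal protein genes have many processed pseudogenes, whose near-identical sequence makes their short reads hard to place.

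Values were in FPKM (fragments scaled to the length of the transcript and to the total of mapped fragments), and the sum over all genes was 309425 in CL5, 340467 in CL6, 315259 in CL7, 309226 in FL2, 272350 in FL5 and 272110 in FL12. The number of reads behind a value was unknown, so the spread over 3 rats is the error given. The level of the members covered a wide range, with a mean over the 6 rats of at least 100 FPKM for 8 members, at least 10 FPKM for 37, between 1 and 10 FPKM for 24 and under 1 FPKM for 25. The 37 members of at least 10 FPKM held 96.2% of the FPKM of all members. A value of 0 in at least 1 rat was listed for 12 members. The filter at a mean of 0.1 FPKM left 80 members for testing and took out Rplp2, Rpl32 on chromosome 6, Rpl38 on chromosome 8, Rps4x on chromosome 4, Rpl39l and Rpl3l, whose highest value in any rat was the 0.26 FPKM of Rplp2 in FL5.

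Many of the low values lay on genes that every cell needs, and they are uncertain as levels. Rplp2, a stalk protein of the large subunit, was listed at 0.06, 0.00 and 0.08 FPKM in the CL rats (CL5, CL6, CL7) and at 0.10, 0.26 and 0.00 FPKM in the FL rats (FL2, FL5, FL12), although its partner Rplp1 stood near 100 FPKM or above in every rat. Only reads with a single place in the genome had been counted, and the RefSeq annotation (assembly GRCr8) lists 908 pseudogenes named after cytosolic ribosomal proteins. Of the 66 symbols with a gene on the chromosome that RefSeq gives, 11 had a mean under 1 FPKM. Across these 66 genes, which are not independent replicates and share the same libraries, the level and the number of RefSeq pseudogenes of the symbol had a Spearman correlation of -0.11. A further 17 members lay on another chromosome than the RefSeq gene of their symbol, and 2 (Rpl10l and Rpl39l) had no RefSeq protein-coding gene of that symbol. Values of members under 1 FPKM are therefore given as listed, and the account turns on the 37 members of at least 10 FPKM.

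Most ribosomal protein mRNAs of at least 10 FPKM were higher in fibrotic liver, by a moderate amount, while many of the less abundant ones did not pass the threshold. With limma on log2(FPKM + 0.1) and Benjamini-Hochberg adjustment over the 14864 genes that reached a mean of 0.1 FPKM, 45 of the 80 members tested (56.2%) rose in the FL group at an adjusted p below 0.05, against 16.9% of all genes tested. By limma 0 members fell, against 1.94% of all genes, and 0 were lower at an unadjusted p under 0.05, as deposited, with a robust prior or without trend, whereas 53 members were higher at that unadjusted limit, where 31.5% of all genes were higher and 4.04% lower. Under other settings the members lower at the unadjusted limit were 1 with centring, 1 with median scaling, 2 with quantile normalization and 1 without FL5. Of all 14864 genes, 288 fell at an adjusted p below 0.05 as deposited. That count was 1058 with centring, 533 with median scaling, 536 with quantile normalization and 168 without FL5. The share of all genes at the unadjusted limit is not given for these settings. Every FL rat lay above every CL rat for 54 members (67.5%), against 35.7% of all genes, and every FL rat lay below every CL rat for 0 members, against 4.78%. The changes were mostly under 2-fold. Only Rpl35, Rpl27a and Rps19 were differentially expressed genes (DEGs, an adjusted p below 0.05 and at least 2-fold) with higher values in the FL group, which is 3.75% of the members against 9.29% of all genes, and 0 members were DEGs with lower values, against 0.935%. Among genes of at least 10 FPKM, 33 of 37 members rose (89.2%), against 13.7% of the 3036 genes at that level.

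The median log2 fold change of the 80 members was 0.71 (1.64-fold), and that of all genes tested was 0.29. The latter depended on scaling, since it became 0.08 with median scaling, -0.10 after centring each rat on its median, -0.04 with quantile normalization and 0.46 when each rat was scaled to a common sum. Changes are therefore also stated after subtraction of the all-gene median (relative change), and on that scale the members had a median of 0.42 with quartiles of 0.24 and 0.57. They lay above the median of all genes in 70 of 80 cases. For the 37 members of at least 10 FPKM the median relative change was 0.48, with quartiles of 0.39 and 0.58 and a range from 0.13 to 0.80, while all 3036 genes at that level had a median of -0.17 with quartiles of -0.39 and 0.04. With quantile normalization these medians were 0.75 and 0.02. The abundant members thus stood together in a narrow band above most genes of like level. The scalings moved the number of calls, but not the direction, of the abundant members. All 37 had a positive log2 fold change under each of the 16 alternatives, although the cut that chose them used the FL rats too. As deposited, 1997 of the 3036 genes at that level were positive as well, and 28.9% lay above the median of all genes. Over the 80 members, 76 had a positive log2 fold change as deposited, against 11575 of the 14864 genes tested. The members with a positive change were 72 with median scaling, 68 with centring, 65 with quantile normalization and 77 with a common sum. For these scalings the count over all genes is not given. Their all-gene median was negative with centring and quantile normalization, and positive with median scaling and a common sum.

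**Figure D1:**
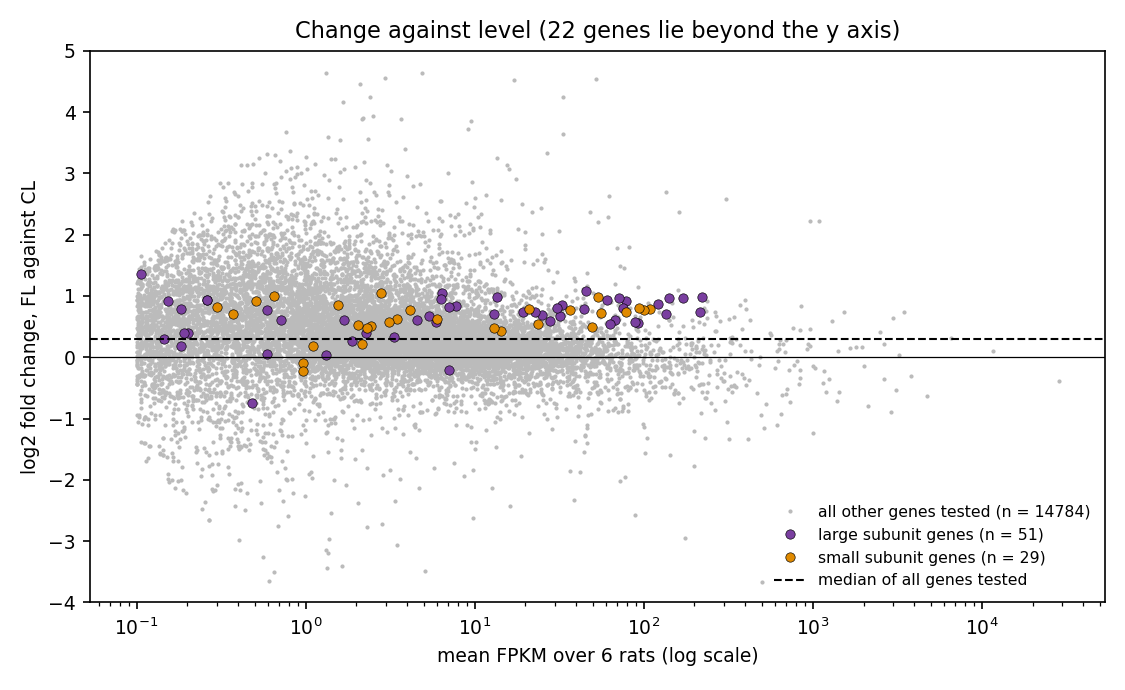
Log2 fold change of the FL against the CL group (vertical axis) against mean FPKM over 6 rats (horizontal axis, log scale) for each gene tested, with members of the large subunit in purple, members of the small subunit in orange and all other genes in grey. The dashed line is the median of all genes (0.29), and the 37 members of at least 10 FPKM all lie above it. Of the 3036 genes at that level, 28.9% do, and members under 1 FPKM scatter widely.

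The count of members that rose depended on the scaling and on single rats. It was 21 of 80 with median scaling, 4 with centring, 28 with quantile normalization and 50 with a common sum, where 8.75%, 5.97%, 5.23% and 26.5% of all genes rose. Of all genes called in either direction, 89.7% were higher in the FL group as deposited, 70.9% with median scaling, 45.6% with centring, 59.2% with quantile normalization and 95.4% with a common sum, whereas the members called were higher under all of them. Without CL7 the count was 15, without FL5 it was 19, without FL12 it was 23 and without CL6 it was 24, while 35 rose without CL5 and 42 without FL2. Of all genes, 6.08% rose without CL7, 6.04% without FL5, 8.64% without FL12, 8.80% without CL6, 8.65% without CL5 and 21.5% without FL2, so the background fell in 5 of these 6 fits and grew without FL2. Among the 37 abundant members, 13 rose without CL7, 16 without FL5, 18 without CL6, 19 without FL12, 29 without FL2 and 30 without CL5, and of the 3036 genes at that level 4.91%, 5.57%, 7.28%, 7.94%, 15.7% and 7.87% rose in the same fits. The median relative change of the members tested lay between 0.36 and 0.49 over the 16 alternatives, which covered 80 members each except for 61 with a mean of 1 FPKM or more and 86 with no filter.

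In single rats the members formed a larger part of the transcriptome in fibrotic liver. The FPKM of all members summed to 2103 in CL5, 2013 in CL6 and 1754 in CL7, and to 3297 in FL2, 3180 in FL5 and 3624 in FL12. As a share of the FPKM of all genes this was 0.680%, 0.591% and 0.556% in the CL rats and 1.07%, 1.17% and 1.33% in the FL rats. The groups did not overlap in either measure, and FL12 had the highest and CL7 the lowest value in both. A few hepatocyte transcripts take much of the sum, so the share was also taken without the 10 highest genes of each rat. It was then 0.992%, 0.934% and 0.860% in CL5, CL6 and CL7 and 1.43%, 1.53% and 1.74% in FL2, FL5 and FL12, again without overlap. FL12 had the highest value of all rats for 28 of the 37 abundant members, FL2 for 7 and FL5 for 2, and CL7 had the lowest for 29, CL5 for 5 and CL6 for 3. Against the mean of the CL group, the median log2 difference of these 37 members was 0.74 in FL2, 0.70 in FL5 and 0.85 in FL12, while it was 0.13 in CL5, 0.05 in CL6 and -0.18 in CL7. Over the 3036 genes of like level the same median was 0.09, 0.11 and 0.15 in the FL rats and 0.02, 0.04 and -0.06 in the CL rats, and FL12 was again the highest and CL7 the lowest rat.

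The stalk proteins, which recruit the elongation factors to the large subunit, included the most abundant member. Rplp0 (ENSRNOG00000001148, chromosome 12), the base of the stalk, was measured at 174.57, 143.80 and 131.05 FPKM in rats CL5, CL6 and CL7 and at 299.72, 269.76 and 319.72 FPKM in rats FL2, FL5 and FL12. All FL rats lay far above all CL rats, and the lowest FL rat (FL5) exceeded the highest CL rat (CL5). The group means were 149.8 ± 22.4 and 296 ± 25.1 FPKM (SD, 3 rats each), which gave a log2 fold change of 0.99 with a standard error (SE) of 0.16 and an adjusted p of 0.00818 from limma, as for all adjusted p-values here. Rplp1 on chromosome 8 (ENSRNOG00000013874), which forms the flexible arm of the stalk together with Rplp2, was at 93.48, 97.82 and 92.98 FPKM in the CL rats and at 206.63, 159.57 and 193.21 FPKM in the FL rats. The CL rats were nearly alike, and the FL rats were all higher but more spread, with FL5 the lowest of them. Its log2 fold change was 0.97 (SE 0.14, adjusted p = 0.00563). A second gene with the symbol Rplp1, on chromosome 17 (ENSRNOG00000011955), was listed at 0.00, 0.30 and 0.00 FPKM in the CL rats and 0.19, 0.61 and 0.00 FPKM in the FL rats, too low to compare. Both calls, of Rplp0 and of Rplp1 on chromosome 8, were kept without any single rat and were lost only with centring (adjusted p = 0.0675 and 0.0637).

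The 5 smallest p-values of the members all belonged to genes of the large subunit, Rplp1 among them. Rpl35 (ENSRNOG00000014272, chromosome 3), which sits at the exit of the tunnel for the nascent chain, was at 27.94, 31.67 and 27.45 FPKM in rats CL5, CL6 and CL7 and at 56.58, 60.03 and 68.50 FPKM in rats FL2, FL5 and FL12. The groups were widely separated and each was tight, with FL12 the highest. Its log2 fold change of 1.08 (SE 0.12, adjusted p = 0.00308) was the largest among members of at least 1 FPKM. Rpl31 (ENSRNOG00000013508, chromosome 9), another protein near the tunnel exit, was low but separated as clearly, at 4.63, 4.18 and 4.06 FPKM in the CL rats and 8.82, 7.70 and 8.67 FPKM in the FL rats. All FL rats were well above the CL rats, which differed little among themselves (log2 fold change 0.95, SE 0.12, adjusted p = 0.00437). Rpl15 (ENSRNOG00000008140, chromosome 15), which lies within the RNA core of the large subunit, was at 38.74, 45.71 and 40.66 FPKM in the CL rats and 77.37, 73.50 and 89.89 FPKM in the FL rats. FL12 was again the highest rat, and the groups did not overlap (log2 fold change 0.94, SE 0.13, adjusted p = 0.00490). Rpl35, Rpl31 and Rpl15 kept their calls under all 16 alternatives.

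Rpl11 and Rpl5 form, with the 5S ribosomal RNA, a particle that also binds the p53 regulator Mdm2 when ribosome assembly is disturbed. Rpl11 (ENSRNOG00000026260, chromosome 5) was at 13.78, 15.97 and 13.55 FPKM in the CL rats and at 23.71, 23.50 and 25.33 FPKM in the FL rats. The FL rats were close to each other and all above the CL rats (log2 fold change 0.74, SE 0.11, adjusted p = 0.00614). Rpl5 (ENSRNOG00000023529, chromosome 14) was at 17.77, 18.29 and 14.97 FPKM in the CL rats and at 25.78, 26.37 and 33.45 FPKM in the FL rats. FL12 stood above the other FL rats, and the groups did not overlap (log2 fold change 0.74, SE 0.14, adjusted p = 0.0131). The call of Rpl5 was lost without CL7 (adjusted p = 0.0563) and with centring (adjusted p = 0.110), and that of Rpl11 only with centring (adjusted p = 0.0658).

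Among the other abundant members of the large subunit, Rpl19 (ENSRNOG00000004741, chromosome 10) was at 187.10, 158.85 and 140.23 FPKM in rats CL5, CL6 and CL7 and at 255.31, 258.87 and 287.92 FPKM in rats FL2, FL5 and FL12. Its groups were apart, but the CL rats differed by more than the FL rats did (log2 fold change 0.73, adjusted p = 0.0198). Without CL6, CL7, FL12 or FL5 its adjusted p was 0.0721, 0.0847, 0.0604 and 0.0594. The log2 fold change was 0.72 without CL6, 0.63 without CL7 and 0.68 without FL12, and such fits have fewer degrees of freedom. The call was also lost with median scaling (adjusted p = 0.0718) and centring (0.207). Rpl17 (ENSRNOG00000018680, chromosome 18) was at 104.22, 100.07 and 101.01 FPKM in the CL rats and at 143.84, 162.23 and 195.92 FPKM in the FL rats. The CL rats were almost equal, and the spread lay within the FL group (log2 fold change 0.71, adjusted p = 0.0172). Its call was lost without CL5 (adjusted p = 0.0516), CL6 (0.0645), CL7 (0.0681) or FL5 (0.0576), and with median scaling (0.0587) and centring (0.172). Rpl13a (ENSRNOG00000020618, chromosome 1), which is also known as a regulator of inflammatory mRNAs outside the ribosome, was at 60.02, 53.56 and 51.17 FPKM in the CL rats and at 87.78, 91.44 and 107.64 FPKM in the FL rats. FL12 was the highest and CL7 the lowest rat (log2 fold change 0.80, adjusted p = 0.00817). Rpl27a (ENSRNOG00000014214, chromosome 1), one of the 3 DEGs, was at 3.81, 5.04 and 3.61 FPKM in the CL rats and at 9.52, 7.28 and 9.07 FPKM in the FL rats. The groups were apart at this low level, with FL5 the lowest FL rat (log2 fold change 1.04, adjusted p = 0.00814). With centring the calls of Rpl13a and Rpl27a were lost (adjusted p = 0.0777 and 0.0513). In all, 24 of the 25 large-subunit members of at least 10 FPKM rose, against 13.7% of all genes at that level, with a median relative change of 0.49. The exception, Rpl29, was named after its values were seen, and had an adjusted p of 0.0532.

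The small subunit decodes the mRNA. Rpsa (ENSRNOG00000018645, chromosome 8), which is also described as a laminin receptor at the cell surface, was at 59.39, 61.86 and 55.39 FPKM in rats CL5, CL6 and CL7 and at 99.67, 94.56 and 99.42 FPKM in rats FL2, FL5 and FL12. Both groups were tight and far apart (log2 fold change 0.73, SE 0.11, adjusted p = 0.00631), and the call was lost only with centring (adjusted p = 0.102). Rps19 (ENSRNOG00000037897, chromosome 1), the gene most often mutated in Diamond-Blackfan anaemia, was a DEG at a low level, with 1.69, 2.35 and 1.37 FPKM in the CL rats and 3.34, 3.26 and 4.78 FPKM in the FL rats. The FL rats were all higher, FL12 by the most (log2 fold change 1.04, SE 0.24, adjusted p = 0.0228). Without CL5, CL7, FL12 or FL5 its adjusted p was 0.0711, 0.0839, 0.0746 and 0.0610, and the call was also lost with centring (0.0827), quantile normalization (0.106) and no filter (0.0677). Rps6 (ENSRNOG00000049025, chromosome 5), the substrate of the S6 kinases downstream of mTOR, was listed at 0.54, 0.37 and 0.29 FPKM in the CL rats and at 0.85, 0.69 and 1.16 FPKM in the FL rats. The groups did not overlap, but the level was low for a gene of this kind and the difference did not pass the threshold (log2 fold change 1.0, SE 0.30, adjusted p = 0.0529). It passed without trend (adjusted p = 0.0498) and with a common sum (0.0318). Of the 12 small-subunit members of at least 10 FPKM, 9 rose, against the same 13.7%, with a median relative change of 0.46. Those that did not were Rps3 (adjusted p = 0.0533), Rps23 (adjusted p = 0.0729) and Rps27l, and the first and second of these were named after their values were seen. Over all levels, 30 of 51 large-subunit and 15 of 29 small-subunit members rose, against 16.9% of all genes, with median relative changes of 0.44 and 0.42, and a difference between the subunits was not tested.

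**Figure D2:**
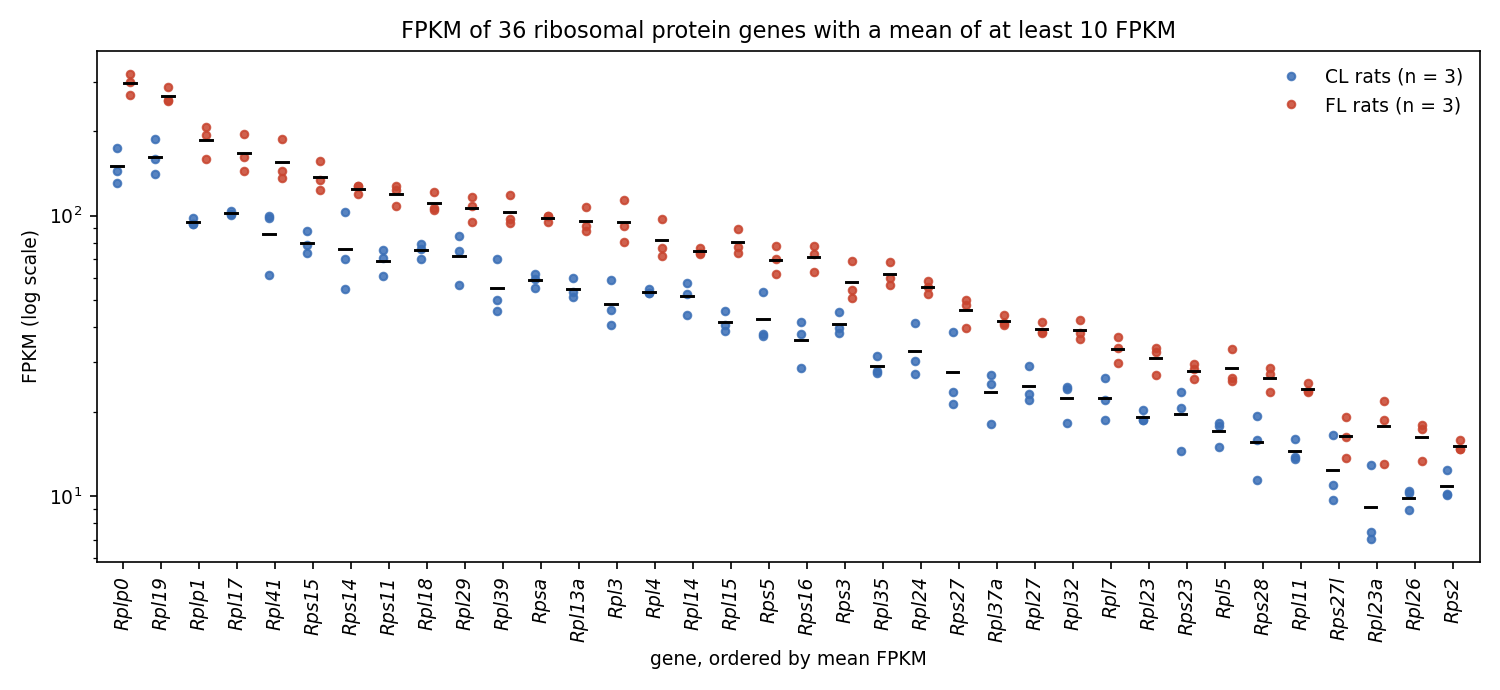
FPKM on a log scale (vertical axis) of 36 of the 37 members with a mean of at least 10 FPKM, ordered by mean FPKM (horizontal axis), with 1 point per rat, CL rats in blue, FL rats in red and a bar at each group mean (3 rats). The FL rats lie above the CL rats for 35 of the 36 genes plotted, and Rps27l is the exception. Over the 3036 genes at that level, 27.5% had every FL rat above every CL rat.

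A difference in change between a paralog and its main gene was not tested. Rps27l (ENSRNOG00000050473, chromosome 8), a paralog of Rps27 that p53 induces, was at 16.47, 10.98 and 9.66 FPKM in the CL rats and at 13.68, 16.21 and 19.08 FPKM in the FL rats. The groups overlapped, since CL5 exceeded FL2 and FL5 (log2 fold change 0.42, SE 0.21, adjusted p = 0.195). Rps27 (ENSRNOG00000016961, chromosome 2) was at 38.32, 23.41 and 21.29 FPKM in the CL rats and at 50.09, 39.89 and 47.82 FPKM in the FL rats. CL5 was again the highest CL rat, close to FL5, but below it (log2 fold change 0.77, SE 0.22, adjusted p = 0.0462). The call of Rps27 was close to the threshold and was lost without CL6 (adjusted p = 0.134), CL7 (0.155), FL12 (0.128), FL2 (0.0930) or FL5 (0.0914). It was also lost with centring (0.316), median scaling (0.157), quantile normalization (0.0863), no trend (0.0887), no filter (0.118) and a pseudocount of 1 (0.0501).

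Rpl10l (ENSRNOG00000032720, chromosome 6), a retrogene copy of Rpl10 known from the testis, was at 5.79, 9.47 and 6.40 FPKM in the CL rats and at 2.95, 11.28 and 6.72 FPKM in the FL rats. The groups overlapped fully, with FL5 the highest and FL2 the lowest of all rats (log2 fold change -0.21, SE 0.43, adjusted p = 0.754), and without FL2 the sign turned (0.30). Rpl3 (ENSRNOG00000016896, chromosome 7), a core protein near the catalytic centre, was at 58.79, 46.16 and 40.69 FPKM in the CL rats and at 80.23, 91.89 and 113.50 FPKM in the FL rats. The groups did not overlap (log2 fold change 0.97, adjusted p = 0.0122), though the adjusted p was 0.0531 without CL7, 0.0505 without FL5 and 0.0629 with centring, and its muscle paralog Rpl3l was listed above 0 only in FL12 (0.07 FPKM). Rpl7 (ENSRNOG00000006992, chromosome 5) was at 26.31, 21.95 and 18.70 FPKM in the CL rats and at 33.64, 29.78 and 36.78 FPKM in the FL rats, without overlap (log2 fold change 0.59, adjusted p = 0.0344). Its call was lost without CL6 (adjusted p = 0.0943), CL7 (0.115), FL12 (0.102), FL2 (0.0568) or FL5 (0.0654), and with centring (0.428), median scaling (0.144), quantile normalization (0.0846), no trend (0.0729) and no filter (0.0752). The paralog Rpl7l1, which lies outside the symbol rule, had a log2 fold change of 0.06 (adjusted p = 0.799) with group means of 8.58 (CL) and 9.03 FPKM (FL).

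Several symbols were carried by more than 1 gene, 8 in all, and reads of near-identical copies could be split between them or left out, so the value of each copy is uncertain. Rpl39 was listed under 4 genes. The copy on chromosome 14 (ENSRNOG00000034237) carried nearly all of its FPKM, with 70.04, 50.16 and 45.69 FPKM in the CL rats and 94.27, 96.89 and 118.15 FPKM in the FL rats. It rose without overlap between the groups (log2 fold change 0.92, SE 0.18, adjusted p = 0.0148), although the RefSeq gene of that symbol is on chromosome X. Without CL6, CL7, FL12 or FL5 its adjusted p was 0.0580, 0.0620, 0.0533 and 0.0538, and it was 0.101 with centring and 0.0517 with no filter. The copy on chromosome X (ENSRNOG00000043348) was listed at 0.44, 0.90 and 0.52 FPKM in the CL rats and at 0.22, 0.59 and 0.22 FPKM in the FL rats. These low values overlapped and pointed the other way (log2 fold change -0.75, SE 0.41, adjusted p = 0.225), the lowest relative change of any member at -1.04. The copies on chromosomes 7 and 20 were at 0 in at least 1 rat of each group, and the one on chromosome 7 had no steady sign over the alternatives. Rpl35a was listed under 5 genes, and the copies on chromosome 12 (ENSRNOG00000047557 and ENSRNOG00000049536) held identical values in every rat.

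The members with the smallest relative changes at 1 FPKM or more were Rpl10l, Rpl30 and Rps24. Rpl30 (ENSRNOG00000005975, chromosome 7) was at 1.34, 1.09 and 1.46 FPKM in the CL rats and at 1.24, 0.95 and 1.91 FPKM in the FL rats. FL5 was the lowest and FL12 the highest of all rats, so the groups overlapped (log2 fold change 0.03, adjusted p = 0.953), and the sign turned with median scaling, centring and quantile normalization, as well as without CL6 (-0.08) and without FL12 (-0.23). Rps24 (ENSRNOG00000010189, chromosome 16) was at 1.23, 1.06 and 0.79 FPKM in the CL rats and at 1.02, 1.47 and 1.07 FPKM in the FL rats, again with overlap (log2 fold change 0.19, adjusted p = 0.594) and a sign that turned with the same scalings. By level, 12 of the 24 members between 1 and 10 FPKM rose, against 20.4% of all genes there, with a median relative change of 0.30 against 0.00. Under 1 FPKM 0 of the 19 tested rose, against 13.1%, with a median of 0.42 against 0.25. At an unadjusted p under 0.05, 3 of these 19 were higher and 0 lower, against 28.3% and 2.77% of all genes under 1 FPKM. The relative changes of the 19 ran from -1.04 to 1.06. The upper end was Rpl39 on chromosome 20, which was at 0 in every CL rat, so the pseudocount sets its change. Its log2 fold change of 1.35 became 3.31 with a pseudocount of 0.01 and 0.26 with a pseudocount of 1.

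Some ribosomal protein genes outside the symbol rule rose too. Of 7 tested, 4 rose (57.1%) and 0 fell with limma (0 lower at an unadjusted p under 0.05), against 16.9% and 1.94% of all genes tested. Their median relative change was 0.18, which moved to 0.47 with quantile normalization, 0.29 without FL5 and 0.37 over genes with a mean of 1 FPKM or more. Gnb2l1 (now Rack1, a scaffold protein of the small subunit) was at 35.84, 35.21 and 27.71 FPKM in the CL rats and at 50.91, 50.19 and 66.15 FPKM in the FL rats. All FL rats were higher (log2 fold change 0.76, adjusted p = 0.0171), as they were for Rpl22l1 (0.82, adjusted p = 0.0258). A gene described as similar to the large-subunit protein L13 (LOC100360491, chromosome 8), classed as a pseudogene, was at 36.44, 53.42 and 37.09 FPKM in the CL rats and at 73.91, 74.87 and 89.78 FPKM in the FL rats. It rose (log2 fold change 0.93, adjusted p = 0.0123), while the gene with the symbol Rpl13 itself was listed between 0.35 and 0.81 FPKM in the 6 rats, so the copy held most of the FPKM under the name of this protein. Of the 5 pseudogenes of ribosomal proteins in the table, 2 could be tested and both rose.

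Other genes of translation had smaller median relative changes. For comparison, 16.9% of all genes tested rose and 1.94% fell, and 13.7% of those of at least 10 FPKM rose. Of 7 elongation factor genes, 3 rose (42.9%) and 0 fell, with a median relative change of 0.18. Among those that rose were Eef1g (log2 fold change 0.83, adjusted p = 0.00729) and Eef1a1 (0.46, adjusted p = 0.0288). Of 37 initiation factor genes, 10 rose (27.0%) and 0 fell, with a median relative change of -0.05. They were led by the poly(A)-binding protein Pabpc1 (log2 fold change 0.88, adjusted p = 0.00655) and Eif2s3 (0.47, adjusted p = 0.0209). The median relative change of the initiation factors lay near that of all genes. Of 23 other genes known for TOP mRNAs, a list that shares genes with the former lists, 12 rose (52.2%) and 0 fell. Their median relative change was 0.19. Vim (log2 fold change 2.01, adjusted p = 0.00363), an intermediate filament of mesenchymal cells, and Nap1l1 (1.13, adjusted p = 0.00519), a histone chaperone, had the smallest p-values there. In these 3 lists 0 genes were lower at an unadjusted p under 0.05. With quantile normalization the median relative changes of the elongation factors, the other TOP mRNAs and the initiation factors were 0.44, 0.43 and 0.16, while that of the ribosomal protein genes was 0.49. The distance of the ribosomal protein genes from the elongation factors and the other TOP mRNAs therefore depended on the scaling.

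Genes that build ribosomes or regulate their production had median relative changes below 0 as deposited. Over all genes tested, 16.9% rose and 1.94% fell. Of 64 ribosome biogenesis genes, 5 rose (7.81%) and 0 fell with limma, with a median relative change of -0.06, and the smallest p-values were those of the nucleolar proteins Ncl (log2 fold change 0.56, adjusted p = 0.0179) and Npm1 (0.70, adjusted p = 0.0236). Of 13 genes of RNA polymerase I and its factors, which transcribe the ribosomal RNA genes, 15.4% rose and 0 fell. Those that rose were Ubtf (log2 fold change 0.56, adjusted p = 0.0270) and Taf1b (1.06, adjusted p = 0.0334), and the list had a median of -0.05. This median became -0.18 with quantile normalization, -0.17 without CL5, 0.01 without CL6 and 0.05 without FL5, and that of ribosome biogenesis became -0.20 without FL12. Of 18 mTOR and Myc regulators, 11.1% rose and 0 fell. Those that rose were Sesn3 (log2 fold change 0.94, adjusted p = 0.0176), an inhibitor of mTOR signalling, and Rheb (0.42, adjusted p = 0.0458), an activator. The list had a median of -0.14, which became -0.05 with quantile normalization and -0.05 with a pseudocount of 1. Myc, a transcriptional activator of ribosomal protein genes, was at 5.80, 21.33 and 17.55 FPKM in the CL rats and at 2.43, 4.72 and 8.13 FPKM in the FL rats. It was lower in FL2 and FL5 than in any CL rat, but FL12 exceeded CL5, and the difference did not pass the threshold (log2 fold change -1.49, SE 0.55, adjusted p = 0.0943). Myc was the only gene of these 3 lists that was lower at an unadjusted p under 0.05.

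Other large complexes of housekeeping genes had relative medians below 0. The 3036 genes of at least 10 FPKM also had one below 0, at -0.17 with quartiles of -0.39 and 0.04. The median level was 21.0 FPKM for the proteasome and 23.7 FPKM for oxidative phosphorylation. Over all genes tested, 16.9% rose and 1.94% fell. Of 71 mitochondrial ribosomal protein genes, Mrpl32 and Mrps5 rose (adjusted p = 0.0270 and 0.0430) and 0 fell, with a median relative change of -0.10. Of 34 proteasome subunit genes, 0 rose and 0 fell with limma, with a median of -0.28, and at an unadjusted p under 0.05 there were 2 higher and 1 lower. Of 69 nuclear genes of oxidative phosphorylation 1 rose, Cox6b2 (adjusted p = 0.0443), and 0 fell (0 lower at an unadjusted p under 0.05), with a median of -0.23. Of 10 reference genes, only Actb rose (log2 fold change 0.79, adjusted p = 0.0198), with a median of -0.06. These medians stayed below 0 under the scalings for the mitochondrial ribosome, the proteasome and oxidative phosphorylation, whereas that of the reference genes turned to 0.02 with quantile normalization. In size they moved with quantile normalization, to -0.12 for the proteasome, -0.05 for oxidative phosphorylation and -0.06 for the mitochondrial ribosome. With a pseudocount of 1 they became -0.18, -0.13 and -0.03 in the same order, and that of the reference genes turned to 0.03. The relative medians of the lists are descriptions, and differences between the lists were not tested.

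**Figure D3:**
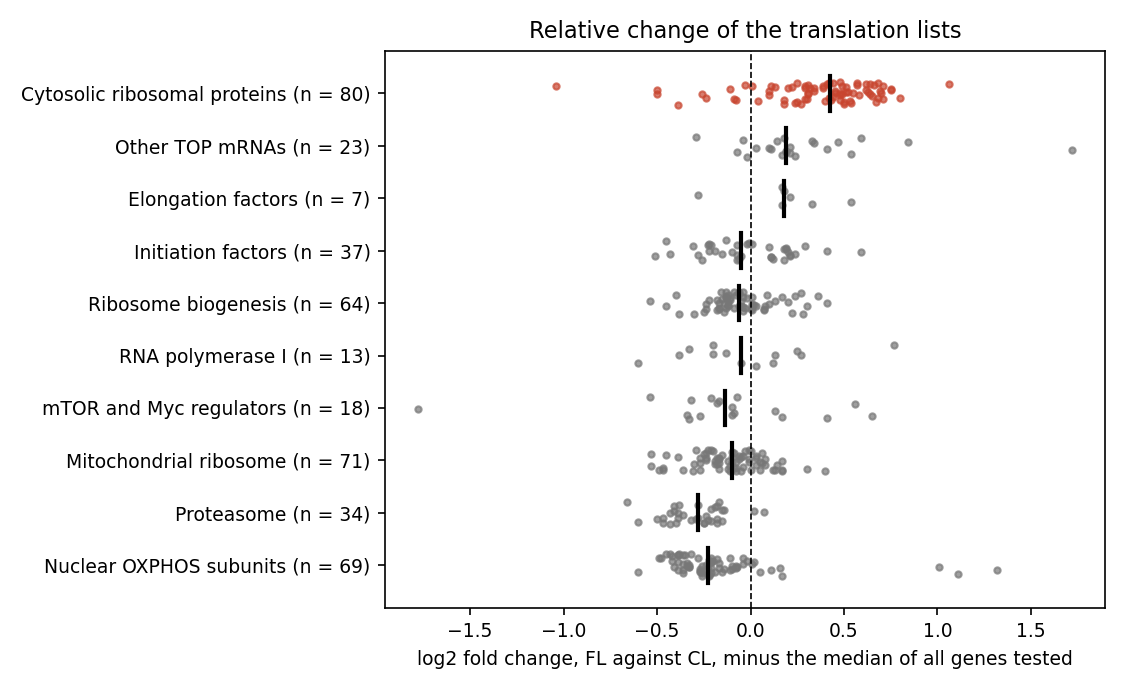
Log2 fold change of the FL against the CL group minus the median of all genes tested (horizontal axis), with 1 point per gene tested, for the cytosolic ribosomal protein genes (red) and 9 other lists (grey), and a bar at each median. The ribosomal protein genes have a median of 0.42, other TOP mRNAs one of 0.19, and the proteasome genes one of -0.28.

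The start of the transcript is a feature that the symbol rule did not use. The RefSeq promoter set (assembly GRCr8) held 55 of the 72 symbols. The motif searched was C at the annotated first base of the transcript, followed by at least 4 bases that were each C or T, on the transcribed strand. It was found for 21 of the 55 symbols (38.2%), against 2.63% of 33469 promoters and 3.11% of their 27457 symbols. Allowing the C to lie up to 5 bases to either side of the annotated start, 33 symbols (60.0%) had it, against 19.0% of all symbols. Of the other lists, ribosome biogenesis had it at the annotated base for 3 of 57 symbols, mitochondrial ribosomal proteins for 2 of 57, proteasome subunits for 0 of 30 and oxidative phosphorylation for 0 of 47. The other TOP mRNAs had it at that base for 0 of 16 symbols and within 5 bases for 7, so the exact annotated base decides many matches. The sequences printed are those of members that rose, chosen to show the run where it begins at the annotated base, from 15 bases before the annotated start to 15 bases from it on, with the run of C and T that begins at the start in capitals. They lie at chr12:46718376-46718405 (minus strand) for Rplp0, chr8:71290858-71290887 (minus strand) for Rplp1, chr3:43165907-43165936 (minus strand) for Rpl35, chr9:49143096-49143125 (plus strand) for Rpl31, chr10:83519049-83519078 (plus strand) for Rpl19, chr18:70856261-70856290 (plus strand) for Rpl17 and chr2:177964592-177964621 (minus strand) for Rps27.
Rplp0: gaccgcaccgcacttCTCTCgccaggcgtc
Rplp1: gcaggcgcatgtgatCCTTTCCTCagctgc
Rpl35: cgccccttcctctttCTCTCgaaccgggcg
Rpl31: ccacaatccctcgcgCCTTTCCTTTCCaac
Rpl19: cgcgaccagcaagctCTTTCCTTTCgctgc
Rpl17: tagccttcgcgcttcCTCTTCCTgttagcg
Rps27: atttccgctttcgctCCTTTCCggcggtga

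Other members that rose, and the paralog Rps27l, had another base at the annotated start and are shown in lower case for comparison. They lie at chr1:104748899-104748928 (minus strand) for Rpl13a, chr5:153560788-153560817 (minus strand) for Rpl11 and chr8:76443643-76443672 (plus strand) for Rps27l, all in GRCr8.
Rpl13a: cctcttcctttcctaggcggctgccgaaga
Rpl11: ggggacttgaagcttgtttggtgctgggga
Rps27l: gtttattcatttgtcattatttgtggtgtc
Among symbols with a gene on the RefSeq chromosome, 15 of the 19 with the motif at the annotated start rose, with a median relative change of 0.48 and a median level of 32.7 FPKM. Of the 32 with another start, 30 were tested and 17 rose, with a median relative change of 0.31 and a median level of 13.7 FPKM, and of all genes 16.9% rose, or 13.7% at 10 FPKM or more. The symbols with the motif were thus also the more abundant ones, and a difference between these groups of genes was not tested. A match is a description of the letters at an annotated start, and the starts used in these livers were not measured here. Rpl13a, shown in lower case, has a run of C and T that ends just before its annotated start, which the search did not count.

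Markers of several cell types differed between the groups as well. Among all genes tested, 16.9% rose and 1.94% fell. In bulk liver, a change in the share of a cell type and a change in the RNA per cell cannot be told apart. Of 8 hepatocyte markers 0 rose and 0 fell with limma (1 higher and 0 lower at an unadjusted p under 0.05), and their FPKM summed to 52889.7, 50261 and 50891 FPKM in rats CL5, CL6 and CL7 and to 45347, 44649 and 43430.3 FPKM in rats FL2, FL5 and FL12, with Alb the most abundant. The sum was lower in each FL rat than in any CL rat, as were Alb, Ttr and Apob. Tf and Apoa1 were higher in each FL rat than in any CL rat, and 5 of the 8 markers had a positive log2 fold change. The group means of Alb were 32272 ± 1010 (CL) and 24803 ± 572 FPKM (FL, SD). Its limma SE was 0.98 (adjusted p = 0.804), since the trend setting also draws on other genes of like level. The 0 calls therefore do not show that the hepatocyte markers were unchanged. Of 8 stellate cell and myofibroblast markers, 4 rose and 0 fell among the 7 tested, and their sum was 79.3, 83.6 and 77.3 FPKM in the CL rats and 193, 529 and 479.6 FPKM in the FL rats, with Col3a1 the most abundant and Col1a2 near 0 (at most 0.18 FPKM). FL2 was the lowest FL rat here, above every CL rat. Of 8 macrophage markers, 3 rose (Cd68, Csf1r and Marco) and 0 fell, with sums of 138, 133 and 135 FPKM in the CL rats and 293, 279 and 153 FPKM in the FL rats and Clec4f the most abundant. The sum of FL12 was the lowest of the FL rats, but Cd68, Csf1r and Marco were above every CL rat in each FL rat, while Clec4f and Cd14 were lower in FL12 than in any CL rat.

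Of 8 lymphocyte markers, 6 could be tested and 0 rose or fell with limma (2 higher and 0 lower at an unadjusted p under 0.05), with sums of 1.57, 1.77 and 2.45 FPKM in the CL rats and 4.19, 4.19 and 2.25 FPKM in the FL rats, led by Cd79a, and Ms4a1 was near 0. Of 5 cholangiocyte markers, Spp1 alone rose, with sums of 5.63, 10.5 and 6.25 FPKM in the CL rats and 12.5, 68.3 and 41.5 FPKM in the FL rats. In the FL rats most of the sum came from Spp1, which macrophages also express. Krt7 (log2 fold change -0.82, adjusted p = 0.259) and Krt19 (-0.01, adjusted p = 0.981) were not higher, and 3 of the 5 had a positive log2 fold change. Of 5 endothelial markers found, Stab2 and Vwf rose and 0 fell. Their sums were 59.0, 60.1 and 53.7 FPKM in the CL rats and 73.1, 63.6 and 72.2 FPKM in the FL rats. Kdr, the most abundant, had a log2 fold change of -0.21 (adjusted p = 0.354) and Tek one of -0.01 (adjusted p = 0.977). The log2 fold change was positive for 3 of the 5. Of 6 markers of cycling cells, Birc5 and Mki67 rose and 0 fell, with sums of 2.49, 4.71 and 3.02 FPKM in the CL rats and 4.18, 19.5 and 16.6 FPKM in the FL rats, led by Mki67. The sum of FL2 lay within the range of the CL rats, and its Birc5 (0.99 FPKM) lay above them (at most 0.55 FPKM). Whether the cell types that these lists mark had a part in the higher ribosomal protein mRNAs was not tested.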

How the data were processed

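Liver RNA of 3 FL and 3 CL rats was sequenced, and the authors deposited FPKM per gene, with 2 decimals, after alignment of trimmed reads with TopHat2 (named in the submitters' processing notes) and counting of uniquely mapped reads. The genome is named there as GRCh38, although the genes carry rat Ensembl identifiers, and no annotation release was given in the sources used here. Groups came from the sample titles. The table held 2 further columns of values, named like a rat of each group. They matched no sample of the series and were not used. Each rat gave 1 library, so p-values rest on the spread between rats. For each gene, limma combines this spread with that of other genes of like level.

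Differences between the groups in log2(FPKM + 0.1) were tested by limma (trend, two-sided, no covariates) over genes that reached a mean of 0.1 FPKM, with Benjamini-Hochberg adjustment. The pseudocount of 0.1 changes the fold change of low genes. Standard errors are limma's. The study's own test, which needs read counts, was not used. The members and the gene lists were chosen with earlier results of these data known, so no list was tested, and lists are described by counts and medians. The lists were ribosomal proteins outside the rule, elongation factors, initiation factors, other TOP mRNAs, ribosome biogenesis, RNA polymerase I, mTOR and Myc regulators, reference genes, mitochondrial ribosome, proteasome, oxidative phosphorylation and markers of 7 cell classes.

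Members were named by a rule: the 5 smallest p in each direction, the 3 largest and 3 smallest relative changes at 1 FPKM or more, the 5 highest and 5 lowest levels, stalk proteins, paralogs, members at 0 in any rat, and Rpsa, Rps6, Rps19, Rpl5, Rpl11 and Rpl13a, with at most 4 genes of each other list and any called regulator. Alb, Marco, Col1a2, Ms4a1, Rpl13, Rpl23a, Rpl26, Rpl29, Rps3, Rps23 and the pseudogene on chromosome 8 were named after their values were seen. Some genes that the rule names are not reported here. The alternatives were pseudocounts of 1 and 0.01, no filter, a mean of at least 1 FPKM, median scaling, centring, quantile normalization, a common sum, limma with a robust prior or no trend, and leaving out each rat. The procedure was tested on simulated data, and the outcome of that is not given here. Promoters were RefSeq's (GRCr8), matched by symbol. The tools were limma 3.58.1 under R 4.3.3 for the fits, pandas 2.3.3, scipy 1.17.1 and numpy 2.4.6 under Python 3.11.15 for the summaries, and matplotlib 3.10.9 for the plots.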

Additional observations from a re-analysis of the deposited data

How the results depend on the processing

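The values are limited by 3 rats per group, an unknown number of reads behind each value and the uncertain placing of reads among gene copies. The count of members called higher (45) became 4 with centring, 21 with median scaling, 28 with quantile normalization and 25 with no filter, which tests more genes (of all genes 5.97%, 8.75%, 5.23% and 7.87% rose), and lay between 15 and 42 with a rat left out. The count of DEGs among the members (3) became 0 with centring and 0 with median scaling, 1 with a pseudocount of 1 and 18 with a common sum, and lay between 1 and 10 with a rat left out. Of all genes, 10.2% were DEGs in either direction, and under these settings 5.95%, 6.77%, 3.59%, 14.2% and 5.36% to 13.4%. The count called lower was 0 under all 16 alternatives with limma. A count over the members of at least 10 FPKM, added after seeing the data, was 33 and became 3 with centring and 17 with median scaling, and lay between 13 and 30 with a rat left out, where 13.7%, 3.49%, 5.73% and 4.91% to 15.7% of the 3036 genes at that level rose. The median relative change of the members kept its sign throughout (0.36 to 0.49).

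The log2 fold change of Rpl30 (0.03) turned to -0.36 with centring, -0.18 with median scaling and -0.49 with quantile normalization, and lay between -0.23 and 0.24 with a rat left out. That of Rps24 (0.19) turned to -0.19, -0.01 and -0.33 with the same scalings. That of Rpl39 on chromosome 7 (0.18) turned to -0.21 with centring and -0.33 with quantile normalization, and lay between -0.39 and 0.84 with a rat left out. That of Rpl10l lay between -0.65 and 0.30. The cause was not tested. None of these 4 genes was called, and a fit with fewer rats has fewer degrees of freedom. No paired analysis was made, because the study divided separate rats into the groups at random and rat numbers define no pairs.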
